A study of Mus musculus with 2 samples.

Results

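Chromatin accessibility was examined at 9 genes through which cells of the adrenal zona glomerulosa sense angiotensin II and potassium and set their output of aldosterone. They were taken by symbol from the 21755 protein-coding genes of the annotation on chromosomes 1 to 19 and X. They are the angiotensin receptors Agtr1a and Agtr1b, the potassium channels Kcnk9 and Kcnj5, the calcium channels Cacna1h and Cacna1d, the chloride channel Clcn2, the calcium sensor Vsnl1 and the adaptor protein Dab2. The material was whole adrenal gland of female F1 hybrid mice (B6CASTF1/J, bred from C57BL/6J and CAST/EiJ) at 36 days of age and with no treatment named in the labels. DNase-seq, in which the nuclease DNase I cuts open chromatin in isolated nuclei, gave 2 libraries, which form 1 group as biological replicates 1 and 2. The animals carry different numbers in the labels but share 1 donor record, and the spread between the libraries may be partly technical. There was no second tissue, age or treatment, so that the 9 genes were set against all protein-coding genes within each library, and no p-value was computed.

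Glomerulosa cells lie under the capsule of the gland and keep a very negative membrane potential through potassium channels. Angiotensin II acts through a G protein and phospholipase C, and together with extracellular potassium it depolarises the cell. Voltage-gated calcium channels then open, and calcium acts through calmodulin kinases on the genes of aldosterone synthesis. In humans, KCNJ5, CACNA1D, CACNA1H and CLCN2 are known as genes whose gain-of-function mutations cause primary aldosteronism. Glomerulosa cells are a small share of a whole gland, and in bulk tissue fewer cells of a type and less open chromatin per cell cannot be told apart.

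Promoters in this set ranged from moderately open to barely detected. Clcn2, Dab2, Agtr1a and Vsnl1 had promoter peaks above the median of all genes, those without a peak included, in both libraries, whereas the promoters of both potassium channels, Kcnk9 and Kcnj5, were called in replicate 2 only and at low height. The tallest open sites of Kcnk9 and Kcnj5 lay away from the promoter. Cacna1h had many more distal peaks than most genes with a domain of its length, and Agtr1b had few.

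Replicate 1 held 157566 peaks and replicate 2 held 166182 peaks. Peak height, the deposited signal of a peak, had a median of 0.897 in replicate 1 and 0.997 in replicate 2. Shared peaks were higher in replicate 2 by a median of 0.38 on the log2 scale over 126322 overlapping pairs. Errors below are SDs over 2 libraries and include that general shift. Of 8 markers of the steroidogenic cortex, 7 had a promoter peak in both libraries, with a median height over the 8 genes of 6.23 in replicate 1 and 9.27 in replicate 2. Promoter peaks were called at 2 of 6 kidney markers in replicate 1 and at 3 of 6 in replicate 2, all at 1.24 or lower. At markers of central neurons they were called at 4 of 5 genes in each library, with medians of 1.07 and 1.69. The tallest of these was Slc17a6, with 3.45 and 6.58, so that a promoter peak alone does not mark a cell type. Of 4 zona glomerulosa markers, Wnt4, Kcnk3 and Hsd3b6 had promoter peaks in both libraries, and Cyp11b2, which encodes aldosterone synthase, had none in either. Heights in replicates 1 and 2 were 5.86 and 9.79 at Wnt4 and 7.55 and 8.70 at Kcnk3. Hsd3b6 was low, at 0.822 and 1.12, below the central neuron medians of the same libraries. Promoter peaks were called at 9 of 12 chromaffin cell markers in replicate 1 and at 10 of 12 in replicate 2, with medians of 0.906 and 1.30.

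The sequences that the results turn on are shown first. They are from the GRCm38.p6 (mm10) reference, which is the C57BL/6J sequence, so that CAST/EiJ alleles are not shown. Each is written 5′ to 3′ on the strand of its gene. Capitals mark bases inside a footprint of either library, a footprint being a short stretch that was protected from cutting within open chromatin. The upstream parts of the promoter peaks of both angiotensin receptor genes and of Vsnl1 come first.
Agtr1a promoter (chr13:30336361-30336440, + strand): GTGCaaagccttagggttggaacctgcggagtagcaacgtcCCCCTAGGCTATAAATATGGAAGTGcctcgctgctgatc
Agtr1b promoter (chr3:20367178-20367320, - strand): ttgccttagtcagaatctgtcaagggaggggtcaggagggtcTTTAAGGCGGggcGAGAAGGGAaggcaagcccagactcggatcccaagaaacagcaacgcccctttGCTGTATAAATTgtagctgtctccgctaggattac
Vsnl1 promoter (chr12:11436614-11436800, - strand): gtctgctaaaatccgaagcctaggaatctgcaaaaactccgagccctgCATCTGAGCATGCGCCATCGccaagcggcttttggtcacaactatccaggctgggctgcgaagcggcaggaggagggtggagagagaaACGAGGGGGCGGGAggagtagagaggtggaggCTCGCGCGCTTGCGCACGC

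The next set holds distal sites of the ion channel genes Kcnk9, Kcnj5 and Cacna1h with an exact match to the core letters of the CTCF motif, on either strand, inside a footprint. CTCF is an insulator protein that anchors chromatin loops.
Kcnk9 upstream site (chr15:72549461-72549680, - strand): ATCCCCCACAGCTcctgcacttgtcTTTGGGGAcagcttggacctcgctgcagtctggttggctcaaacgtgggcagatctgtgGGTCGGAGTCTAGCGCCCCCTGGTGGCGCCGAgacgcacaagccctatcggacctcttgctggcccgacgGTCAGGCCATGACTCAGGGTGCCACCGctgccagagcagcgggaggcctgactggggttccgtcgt
Kcnk9 intron site (chr15:72517141-72517300, - strand): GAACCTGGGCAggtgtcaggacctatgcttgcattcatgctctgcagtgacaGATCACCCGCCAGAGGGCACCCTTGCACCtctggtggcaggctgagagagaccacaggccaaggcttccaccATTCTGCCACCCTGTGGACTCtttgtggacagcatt
Kcnj5 upstream site (chr9:32350461-32350620, - strand): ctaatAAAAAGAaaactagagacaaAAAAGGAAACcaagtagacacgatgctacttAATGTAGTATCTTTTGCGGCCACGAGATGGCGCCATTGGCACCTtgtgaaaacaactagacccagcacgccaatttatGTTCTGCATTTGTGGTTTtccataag
Cacna1h CTCF-core site (chr17:25397921-25398120, - strand): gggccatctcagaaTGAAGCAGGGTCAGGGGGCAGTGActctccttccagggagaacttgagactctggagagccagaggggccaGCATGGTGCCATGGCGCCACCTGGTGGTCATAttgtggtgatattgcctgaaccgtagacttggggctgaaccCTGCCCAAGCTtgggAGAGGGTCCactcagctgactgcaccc

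A further set shows distal sites with letters of other factors that act in the adrenal or in excitable cells: SF-1, the steroidogenic master regulator (CAAGGTCA), CREB, which responds to cyclic AMP and calcium (TGACGTCA), and REST, a repressor of neuronal genes. The tallest distal site of Agtr1a closes it as the one tall site in the set that lies mostly in a repeat.
Cacna1h SF-1 site (chr17:25427481-25427660, - strand): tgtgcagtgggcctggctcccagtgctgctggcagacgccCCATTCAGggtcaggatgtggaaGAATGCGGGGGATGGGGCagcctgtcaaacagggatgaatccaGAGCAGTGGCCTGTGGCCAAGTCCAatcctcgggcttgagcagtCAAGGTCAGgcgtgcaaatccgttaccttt
Cacna1d SF-1 site (chr14:30218181-30218380, - strand): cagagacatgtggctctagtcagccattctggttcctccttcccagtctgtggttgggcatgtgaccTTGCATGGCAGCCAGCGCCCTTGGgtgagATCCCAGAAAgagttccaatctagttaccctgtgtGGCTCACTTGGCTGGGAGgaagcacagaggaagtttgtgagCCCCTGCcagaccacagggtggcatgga
Clcn2 domain CRE site (chr16:20696001-20696174, - strand): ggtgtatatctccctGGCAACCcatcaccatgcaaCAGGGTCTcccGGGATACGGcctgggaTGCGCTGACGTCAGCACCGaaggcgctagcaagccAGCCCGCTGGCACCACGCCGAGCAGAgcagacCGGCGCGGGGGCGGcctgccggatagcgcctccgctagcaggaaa
Kcnk9 REST-letter site (chr15:72568681-72568840, - strand): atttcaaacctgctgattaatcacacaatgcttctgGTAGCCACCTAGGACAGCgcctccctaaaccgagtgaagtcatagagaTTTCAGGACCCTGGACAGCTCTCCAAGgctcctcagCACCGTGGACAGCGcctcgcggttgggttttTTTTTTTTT
Cacna1h REST-letter site (chr17:25400561-25400740, - strand): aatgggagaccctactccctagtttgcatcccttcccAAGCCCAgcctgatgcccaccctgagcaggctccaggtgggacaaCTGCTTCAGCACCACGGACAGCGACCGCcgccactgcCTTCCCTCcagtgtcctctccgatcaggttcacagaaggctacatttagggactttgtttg
Agtr1a repeat site (chr13:30331181-30331340, + strand): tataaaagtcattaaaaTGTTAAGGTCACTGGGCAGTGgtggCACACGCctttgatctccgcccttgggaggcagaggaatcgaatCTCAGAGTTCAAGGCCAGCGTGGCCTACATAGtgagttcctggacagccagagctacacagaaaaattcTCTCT

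A gene was given a promoter peak where a peak reached within 1 kb of any of its transcription start sites (TSS), and its promoter height was that of the tallest such peak, or 0 with none. By this measure 7 of the 9 genes had a promoter peak in replicate 1, against 69.2% of all protein-coding genes. In replicate 2 it was 9 of 9, against 70.1% of all genes. With 9 genes these shares are close to that of the genome. The median promoter height of the 9 genes was 2.76 in replicate 1, against 3.06 over all genes, and 4.12 in replicate 2, against 4.62 over all genes. In each library 4 of the 9 genes lay above the median of all genes. Among genes with a promoter peak the medians were 6.99 and 10.3, and of the 9 genes only Clcn2 in replicate 2 was higher.

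**Figure D1:**
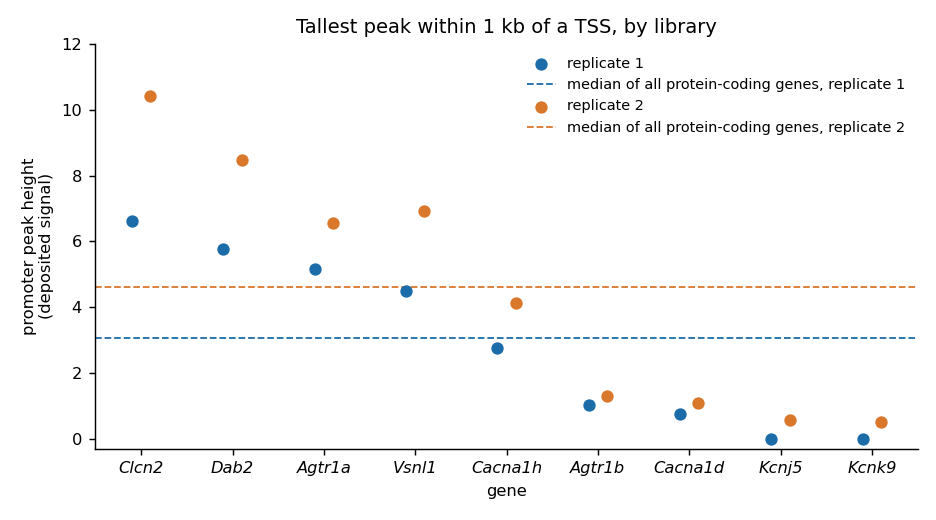
Promoter peak height (deposited signal, y axis) of each gene in replicate 1 and replicate 2, ordered by the mean, with the medians over all protein-coding genes as dashed lines. Clcn2, Dab2, Agtr1a and Vsnl1 lie above the median of their own library in both libraries, and Kcnj5 and Kcnk9 are at 0 in replicate 1.

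The order of the 9 promoters was almost the same in both libraries: Clcn2, Dab2, Agtr1a, Vsnl1, Cacna1h, Agtr1b, Cacna1d, Kcnj5 and Kcnk9, from high to low. Agtr1a and Vsnl1 changed places in replicate 2, and Kcnj5 and Kcnk9 were both at 0 in replicate 1. Across the libraries, whose general shift is part of this spread, the values of neighbours among the first 4 genes overlapped, as did those of Agtr1b and Cacna1d. Within each library Clcn2 was higher than Dab2, Dab2 higher than Agtr1a and Vsnl1, and Agtr1b higher than Cacna1d. The values of Cacna1h lay below those of the first 4 genes and above those of Agtr1b without overlap.

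Distal peaks were those with their centre in the domain of a gene and over 1 kb from all of its TSS. A domain took in the gene body and 50 kb on either side, cut at the next protein-coding TSS. All 9 genes had at least 1 distal peak in both libraries, against 88.4% of all genes in replicate 1 and 89.5% in replicate 2. The median number was 12 in replicate 1 and 11 in replicate 2 for the 9 genes, against 6 and 6 over all genes. Much of that difference went with domain length. Per 100 kb of domain the medians were 7.74 and 6.75 for the 9 genes, against 7.39 and 7.67 over all genes. Percentiles of distal peak counts below are therefore taken within 10 fixed classes of domain length, which hold nearly equal numbers of genes. Percentiles for the length of a gene or domain refer to its class. Length within a class was not adjusted for, so that its effect is removed only in part. Dab2, with 195.5 kb, lies near the lower end of a class of 188.6 to 4482 kb. Clcn2, with 22.9 kb, lies near the upper end of a class of 1.17 to 25.3 kb.

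**Figure D2:**
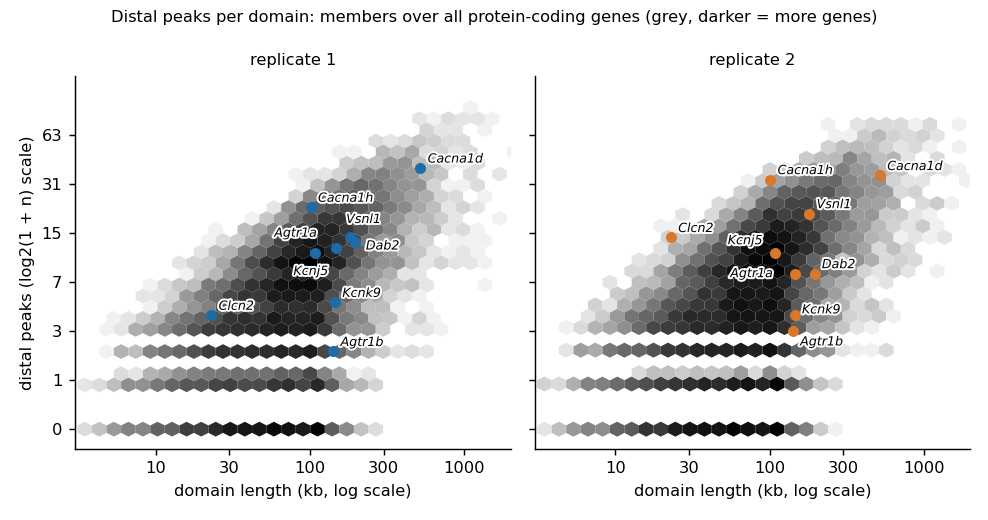
Number of distal peaks (y axis, log2(1 + n) scale) against domain length (x axis, kb, log scale) in replicate 1 (left) and replicate 2 (right). Coloured points are the 9 genes, and grey cells hold all protein-coding genes, darker for more genes. Cacna1h, and in replicate 2 Clcn2, sit at the upper edge of the genes of their length, and Agtr1b lies below most of them.

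Agtr1a encodes the main angiotensin II receptor of the rodent adrenal cortex, a G protein-coupled receptor of the Gq type. It lies on chr13:30336441-30382867, on the + strand. Its promoter peak at the single annotated TSS had a height of 5.18 in replicate 1 and 6.58 in replicate 2, a mean of 5.88 ± 0.99 (SD, n = 2). Both values were near the middle of all genes, at the 58.4th and 55.1st percentiles. The tallest distal site lay 5.18 kb upstream of the TSS, at chr13:30331181-30331340. It had heights of 3.16 and 5.76, with 2 footprints inside the peak of replicate 1 and 4 inside that of replicate 2. The reference genome marks 85.6% of its bases as repeat, yet 98.4% of its 32-base words occur once in the genome. Of the 182 sites at the 9 genes, 6 had over 50% of their bases marked as repeat, against 4.5% of all peaks in replicate 1 and 5.67% in replicate 2. The other 5 of these 6 sites were each called in 1 library only, at heights of up to 0.607. The next tallest distal site of Agtr1a was in an intron, 42.7 kb downstream of the TSS, with heights of 1.80 and 3.24. The gene had 12 distal peaks in replicate 1 and 8 in replicate 2, at the 55.6th and 33.7th percentiles for its length.

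Agtr1b encodes the second type 1 receptor of rodents, which arose by duplication and is known for its expression in adrenal and pituitary. It lies on chr3:20314473-20367177, on the − strand. Its promoter peak had heights of 1.02 and 1.32, a mean of 1.17 ± 0.21 (SD, n = 2). In both libraries this was lower than at Agtr1a, with no overlap between the genes. Only 2 distal peaks were called in replicate 1 and 3 in replicate 2, at the 7.66th and 10.7th percentiles for its length, and the tallest was an intron site 32.3 kb downstream with heights of 0.925 and 1.76. A site 62.1 kb downstream of the TSS had heights of 0.346 and 0.318. An intron peak of 0.371 was called in replicate 2 only, and the reference marks 86.1% of its bases as repeat. Both receptor promoters carry TATAAA at the usual place of a TATA box, starting 30 bases before the TSS in Agtr1a and 31 bases before it in Agtr1b. These were the only 2 of the 9 genes with those letters between 40 and 20 bases before a TSS, on the gene's strand, against 3.16% of all protein-coding genes. In both sequences above the letters stand in capitals, so that each base lies in a footprint of at least 1 library. Whether these letters all lie in the same footprint was not tested. The search was added after the sequences had been seen. The near-identical coding regions of these genes could blur read placement, but 90.4% of the 32-base words around the Agtr1a promoter and 97.7% around that of Agtr1b occur once in the genome.

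Kcnk9 encodes TASK-3, a potassium leak channel that holds glomerulosa cells hyperpolarised and pairs with TASK-1. It lies on chr15:72501089-72546340, on the − strand. No promoter peak was called in replicate 1, and replicate 2 had a single peak of 0.521, centred 0.608 kb upstream of the TSS. In replicate 1 no position within 1 kb of the TSS passed the listed false discovery rate of 0.05, and in replicate 2 only 123 bp did, the lowest value being 0.028. The promoter is nevertheless CpG-rich, with an observed-to-expected CpG ratio of 0.913, the highest of the 9 genes and at the 91st percentile of all genes. Kcnk3, the gene of TASK-1, had promoter heights of 7.55 and 8.70.

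The 2 tallest distal sites of Kcnk9 were far taller than its promoter. The upstream site, 3.23 kb before the TSS at chr15:72549421-72549680 over both libraries, had heights of 5.42 and 8.99. The intron site, 29.1 kb after the TSS at chr15:72517141-72517300, had heights of 4.58 and 8.61. Both hold the CTCF core inside a footprint in both libraries, and in the upstream site the AP-1 letters TGANTCA also fall in a footprint. A lower site 22.4 kb upstream, with heights of 2.33 and 2.71, holds the REST letters, of which a footprint covers a part. A site 1.45 kb upstream, just outside the promoter window, had heights of 1.20 and 1.86. With a window of 2 kb it becomes a promoter peak in both libraries, and with 500 bp Kcnk9 has none in either. In all the domain held 5 distal peaks in replicate 1 and 4 in replicate 2, at the 19.3rd and 14.7th percentiles for its length.

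Kcnj5 encodes GIRK4, an inwardly rectifying potassium channel. It lies on chr9:32314707-32344350, on the − strand. Its promoter had no peak in replicate 1 and 1 peak of 0.583 in replicate 2, where 190 bp of the promoter window passed the false discovery rate of 0.05. By the mean of both libraries its tallest distal site lay 6.19 kb upstream of the nearest TSS, in an intron of the lincRNA gene Gm39317, with heights of 1.92 and 3.90. It holds the CTCF core in a footprint in both libraries. A second site, 51.4 kb downstream of the TSS and beyond the gene's end, had heights of 2.23 and 2.98, and in replicate 2 the central 200 bp of its peak held the REST letters, outside any footprint. A further site, 72 kb downstream, had heights of 2.51 and 2.36 and was the tallest in replicate 1. A total of 11 distal peaks was called in each library, at the 78.2nd and 75.6th percentiles for the domain, which is cut upstream by Kcnj1, another inward rectifier with no promoter peak in either library.

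**Figure D3:**
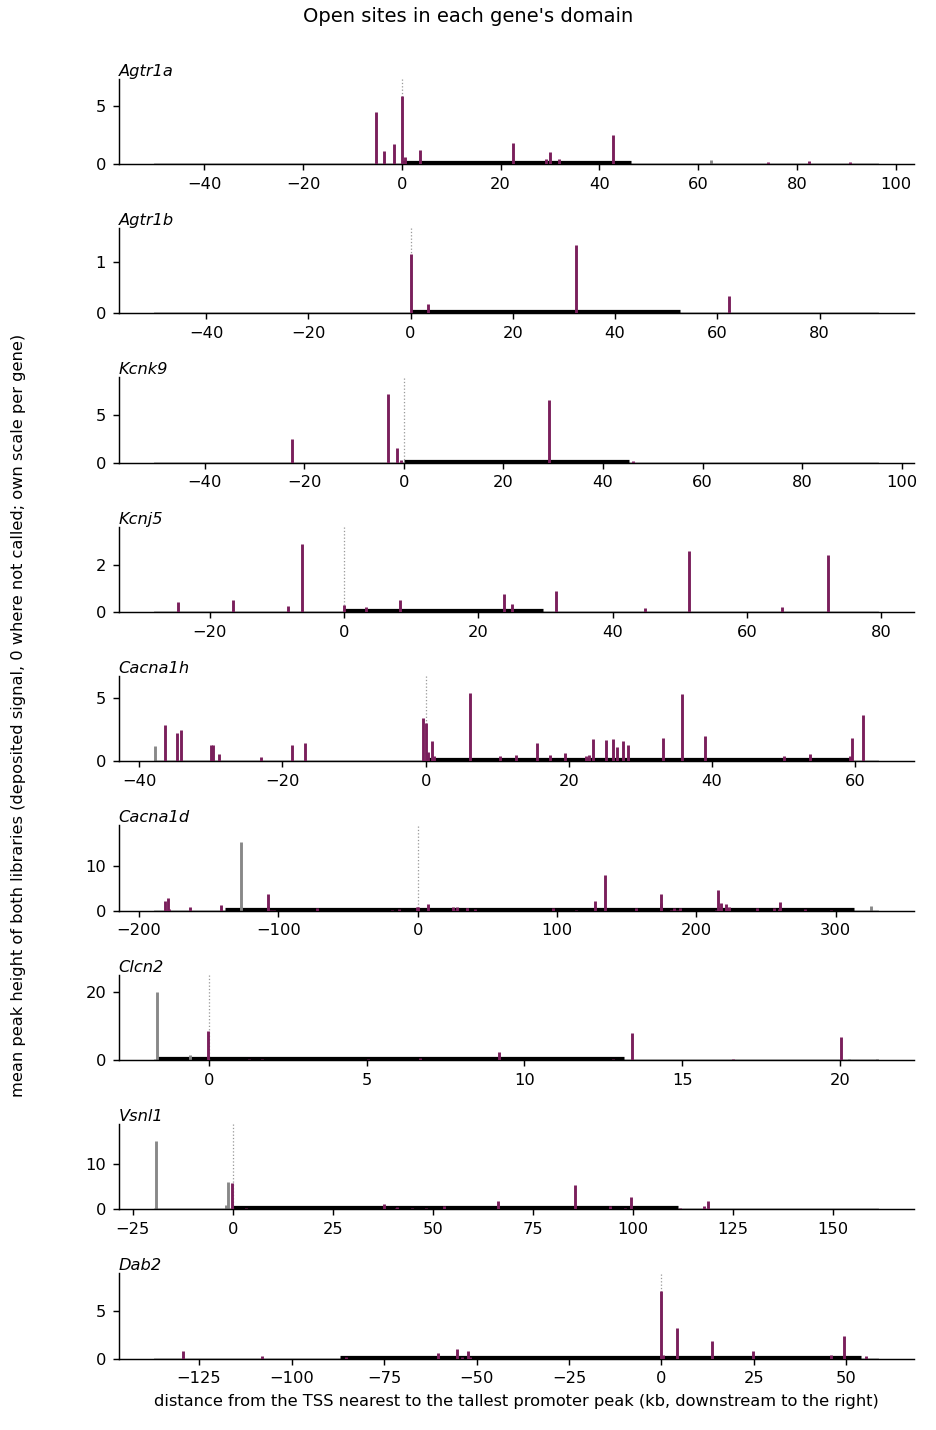
Open sites in the domain of each gene. The x axis is the distance in kb from the TSS nearest to the tallest promoter peak, with downstream to the right, and the y axis is the mean height over both libraries, with 0 for a library without a call and a separate scale for each gene. Thick black lines are the gene bodies, thin lines the domains, purple bars the sites and grey bars the sites within 1 kb of a TSS of another gene. The tallest bars of Cacna1d, Clcn2 and Vsnl1 are grey, and those of Agtr1b, Kcnk9, Kcnj5 and Cacna1h stand away from the promoter.

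Cacna1h encodes CaV3.2, a T-type calcium channel that opens at the small depolarisations of glomerulosa cells. It lies on chr17:25374285-25433783, on the − strand. Its promoter was open over a broad stretch rather than in 1 tall peak. The tallest promoter peak had heights of 2.76 and 4.12, a mean of 3.44 ± 0.97 (SD, n = 2), close to the median of all genes, and 3 promoter peaks were called in replicate 1 and 4 in replicate 2. Positions under the false discovery rate of 0.05 filled 1286 and 1727 bp of the 2001 bp window, at the 81.4th and 92.8th percentiles. The distal part was rich in peaks, with 22 in replicate 1 and 33 in replicate 2, at the 98.3rd and 99.7th percentiles for its length.

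The tallest distal sites of Cacna1h were both intronic. That at chr17:25427481-25427680, 6.21 kb after the TSS, had heights of 3.85 and 6.87 and holds the SF-1 letters, which lie in a footprint in replicate 2 but not in replicate 1. That at chr17:25397921-25398120, 35.8 kb after the TSS, had heights of 3.60 and 6.94 and holds the CTCF core in a footprint in both libraries. A lower intron site at chr17:25400561-25400740, with heights of 1.40 and 2.32, holds the REST letters in a footprint in both libraries. Near the far end of the domain, in an intron of Tekt4 at chr17:25468421-25468600, a peak of 1.73 and 2.80 had the SF-1 letters in a footprint in both libraries.

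Cacna1d encodes CaV1.3, an L-type calcium channel. It is the longest gene of the set, at chr14:30039939-30491455 on the − strand. Its promoter was low, with 0.757 in replicate 1 and 1.10 in replicate 2, a mean of 0.93 ± 0.24 (SD, n = 2). The tallest peaks flanked the inner TSS near position 30352991, at sites centred 0.6 kb downstream and 0.522 kb upstream. The site over that TSS had heights of only 0.392 and 0.397. The upstream TSS at position 30491156 had no peak in either library. With 39 and 35 distal peaks the gene had more than any other of the 9, at the 90.3rd and 85.3rd percentiles for long domains. Per 100 kb of domain it had 7.52 and 6.75, against medians of 7.39 and 7.67 over all genes. The tallest peak in its domain, with 12.6 and 17.8, lies 51 bp from the TSS of Dcp1a and is thus at the promoter of another gene. Of the distal sites away from other TSS, the tallest was an intron site 135 kb downstream of the inner TSS, at chr14:30218181-30218400, with heights of 6.86 and 9.21. Its SF-1 letters, on the opposite strand, overlap a footprint only in part. A second intron site, 216 kb downstream, had heights of 4.80 and 4.53.

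Clcn2 encodes ClC-2, a chloride channel whose opening depolarises glomerulosa cells. It lies on chr16:20702964-20717746, on the − strand, in a domain of only 22.9 kb between TSS of Fam131a and Polr2h. Its promoter peak was the tallest of the 9 genes, with 6.62 and 10.4, a mean of 8.51 ± 2.68 (SD, n = 2), at the 64th and 65.4th percentiles of all genes. A taller peak of 17.5 and 22.9 lies 59 bp from the TSS of Polr2h, where the gene record of Clcn2 also begins. If the 5′ end of the gene record, or a window of 2 kb, is used, that peak becomes the promoter peak of Clcn2. Distal peaks numbered 4 in replicate 1 and 14 in replicate 2, at the 83rd and 99.7th percentiles of its length class. The domain is near the upper end of that class, which may raise these percentiles. Of its 16 sites, 5 were called in both libraries and 11 in replicate 2 only.

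The 2 tallest distal sites of the Clcn2 domain away from other TSS lay in Fam131a. That in an exon of Fam131a, at chr16:20702601-20702820, had heights of 6.45 and 9.38 and holds the CTCF core in a footprint in both libraries. That in an intron of Fam131a, at chr16:20696001-20696200, had heights of 6.15 and 7.73 and holds the full CREB letters TGACGTCA in a footprint in both libraries. It lies 1193 bp from a TSS of Fam131a, and to which gene such a site relates was not tested.

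Vsnl1 encodes visinin-like 1, a neuronal calcium sensor that is abundant in the zona glomerulosa. It lies on chr12:11325242-11436613, on the − strand. Its promoter peak had heights of 4.50 and 6.93, a mean of 5.72 ± 1.71 (SD, n = 2), with 3 footprints in each library. The sequence above shows, in capitals, the SP/KLF letters GGGCGG and the core letters of the NRF1 motif, both common at CpG-rich promoters. The NRF1 letters were covered in full by footprints in each library. Those of SP/KLF were covered in full only with the footprints of both libraries joined. Of all promoter peaks, 48.2% in replicate 1 and 48% in replicate 2 hold the SP/KLF letters, and 5.23% and 4.97% hold those of NRF1. A peak 1.15 kb upstream, with heights of 4.14 and 8.01, lies 472 bp from the TSS of the lincRNA gene 4930511A02Rik. The tallest peak in the domain, with 12.5 and 17.3, lies 158 bp from the TSS of Rad51ap2. Of the distal sites away from other TSS the tallest was in an intron, 84.6 kb downstream of the nearest TSS, with heights of 3.57 and 7.17, and it held none of the letters searched. The next was an intron site 98.6 kb downstream, with heights of 1.92 and 3.66. Distal peaks numbered 14 and 20, at the 65.3rd and 83.8th percentiles for the length.

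Dab2 encodes Disabled-2, an adaptor of clathrin-mediated endocytosis that marks the zona glomerulosa in rodents. It lies on chr15:6299788-6440712, on the + strand. Its promoter peak stood at the inner group of TSS near position 6386748 and had heights of 5.78 and 8.47, a mean of 7.13 ± 1.90 (SD, n = 2), at the 60.9th and 60.2nd percentiles. The upstream TSS at position 6299788 had no peak in either library. The tallest distal sites were intronic, 4.08 kb and 49.2 kb downstream of the nearest TSS, with heights of 2.92 and 3.45 for the first and 2.04 and 2.64 for the second. Distal peaks numbered 13 in replicate 1 and 8 in replicate 2, at the 33.9th and 16.8th percentiles of its length class. The domain is near the lower end of that class, which may lower these percentiles.

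Taken as sites, with overlapping peaks of the libraries merged, the 9 genes had 182 sites. Of these 107 were called in both libraries, 27 in replicate 1 only and 48 in replicate 2 only. Introns of the genes themselves held 113 sites, their exons 10, other genes 26 and the space between genes 33. The tallest site called in 1 library only was a peak of 3.16 in the promoter window of Clcn2 in replicate 2.

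Among the genes' peaks, 106 of 136 (77.9%) in replicate 1 and 127 of 155 (81.9%) in replicate 2 held a footprint, against 73.8% and 72% of all peaks. Height goes with this share. In the highest of 3 equal height classes it was 97.9% and 96.7% for the 9 genes, against 95.4% and 93.7% of all peaks. Of the genes' peaks, 109 (80.1%) in replicate 1 overlapped a peak of replicate 2, against 80.2% of all peaks, and 107 (69%) in replicate 2 overlapped a peak of replicate 1, against 76.2%. The lower share in replicate 2 lay in its peaks of low and middle height. In the middle class 59.3% of the genes' peaks were shared, against 83.5% of all peaks, while in the highest class it was 98.3%, against 98.5%. This was not spread evenly over the genes. Of the 48 sites called in replicate 2 only, Cacna1h had 13, Clcn2 11 and Vsnl1 11. Those of Cacna1h had heights of 0.724 to 1.41, all within the middle class.

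The libraries differed in the same direction at most of the genes. Over genes with at least 5 paired peaks the median shift, replicate 2 minus replicate 1, was 0.43 on the log2 scale. It was 0.62 at Vsnl1, 0.56 at Cacna1h, 0.55 at Agtr1a, 0.54 at Clcn2, 0.43 at Cacna1d and 0.34 at Kcnj5, and Agtr1b and Kcnk9 had too few pairs. Dab2 alone among these 7 had lower peaks in replicate 2, with a median shift of -0.15 over 8 pairs, at the 1.88th percentile of 13077 genes. Its promoter peak followed the general shift, with 0.55, and its negative shifts were all at distal sites. No cause of this was tested.

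**Figure D4:**
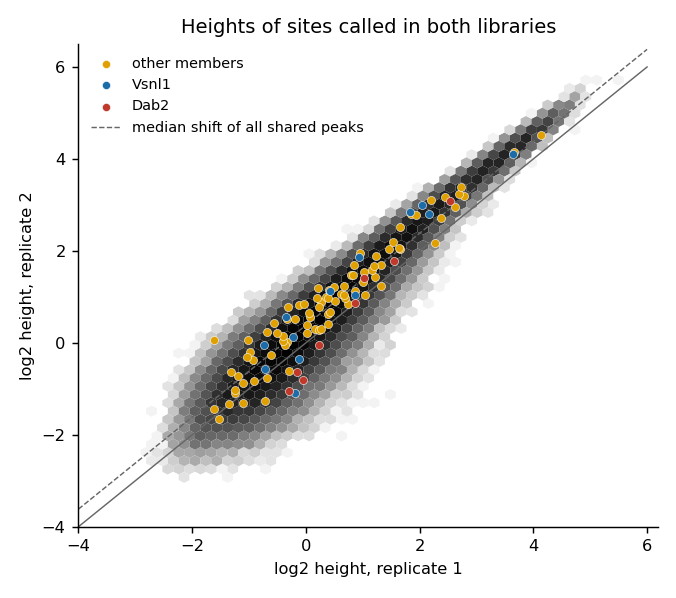
Log2 peak heights in replicate 1 (x axis) and replicate 2 (y axis) of sites called in both libraries, for Dab2 (red), Vsnl1 (blue) and the other 7 genes (yellow), over all paired peaks (grey, darker for more). The solid line marks equal heights and the dashed line the median shift of all paired peaks. Most points of the 9 genes follow the dashed line, and the low points of Dab2 lie under the solid line.

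Letters of known factors were searched on both strands in the central 200 bp of each peak. For these shares a peak was a promoter peak if its centre lay within 1 kb of any protein-coding TSS, and distal otherwise. Peaks at promoters of neighbouring genes thus count as promoter peaks here, and the totals differ from those above. A match is a description of the reference sequence, not evidence of binding. Over all distal peaks the CTCF core was about as frequent at the 9 genes as elsewhere, in 7 of 118 peaks (5.93%) in replicate 1 and 7 of 130 (5.38%) in replicate 2, against 5.24% and 4.99% of all distal peaks. Among distal peaks in the top 10% of heights it was in 4 of 15 in replicate 1 and 5 of 15 in replicate 2, against 12.8% and 14.1% of all such peaks. All of these matches lay in footprints, as did 87.8% and 91.2% of the matching peaks among all peaks of this height class. This height class was added after the values had been seen. These peaks were both tall sites of Kcnk9, the site of Cacna1h shown above, the exon site of Fam131a in the Clcn2 domain and, in replicate 2, the upstream site of Kcnj5.

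SF-1 letters were in 9 of 118 distal peaks in replicate 1 and 8 of 130 in replicate 2, against 5.43% and 5.09% of all distal peaks. They were in none of the 18 and 25 promoter peaks so defined, against 1.37% and 1.38% of all promoter peaks. The full CREB letters were in 2 distal peaks in replicate 1 and 1 in replicate 2, against 0.452% and 0.457%. The REST letters were rare throughout, in 2 distal peaks of the 9 genes in replicate 1 and 3 in replicate 2, against 0.217% and 0.231% of all distal peaks. The 3 sites lay at Kcnk9, Kcnj5 and Cacna1h. Most of the 182 sites of the 9 genes were at ion channel genes. Cacna1d had 48, Cacna1h 37, Clcn2 16, Kcnj5 14 and Kcnk9 6. TCF/LEF letters CTTTGTT, of the factors through which Wnt signals act, were in 13 of 118 (11%) and 12 of 130 (9.23%), against 4.6% and 4.36%. In no case did they lie wholly in a footprint, which held for all but 1.3% and 1.17% of matching distal peaks in general. The other form searched, CTTTGAT, was in 7 of 118 (5.93%) and 9 of 130 (6.92%), against 3.24% and 3.15%. It had 1 match in a footprint, in replicate 2, where 3.11% of all matching distal peaks had one. AP-1 letters were in 24.6% and 17.7%, against 21.8% and 18.9%.

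Promoter heights also varied within the lists of other genes of the pathway. All 12 genes of the G protein and phospholipase C step had a promoter peak in both libraries, with median heights of 8.43 and 12.2. The tallest was Gna11, a G protein alpha subunit of the Gq class, with 26.1 and 37.7, and the lowest was Plcb4, a phospholipase C, with 2.14 and 2.09. All 11 calmodulin and calmodulin kinase genes had one as well, from Calm3 with 19.7 and 28 to Camk2b with 0.477 and 0.503. All 7 transcription factors of the list did too, with medians of 12.9 and 17.7, the tallest being Atf2 with 16.3 and 25.6 and the lowest Nr5a1, the gene of SF-1, with 6.62 and 11.7. Among 9 other channels, pumps and transporters, 8 promoters were open in replicate 1 and all 9 in replicate 2, the tallest being the zinc exporter gene Slc30a1 with 18.6 and 26.3. The calcium pump gene Atp2b3 was the lowest of these, at 0 and 1.13. Among other genes of the angiotensin system the tallest promoter was that of Agtrap, which binds the receptor's tail, with 13.5 and 23.1. Ren1, the gene of renin, and Mas1, a receptor gene, had no promoter peak in either library.

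The families of the 9 genes showed how their promoters compare with relatives. Among 13 other two-pore potassium channels, 8 promoters were open in replicate 1 and 11 in replicate 2, with Kcnk5 the tallest at 8.68 and 15.9. Of 14 other inward rectifiers, 7 had one in each library, with Kcnj2 the tallest at 11.6 and 19.4. The low promoters of Kcnk9 and Kcnj5 thus had several relatives at 0. Of 8 other calcium channel alpha-1 genes, 6 had one in each library. The tallest was Cacna1g, the gene of the T-type channel CaV3.1, with 9.02 and 13.8, above Cacna1h in both libraries, and Cacna1s and Cacna1f had no promoter peak. Of 8 other chloride channel and exchanger genes, 5 had one in each library, with Clcn6 the tallest at 23.2 and 34.2. Of 6 other neuronal calcium sensors, 5 had one in each library, led by Hpcal1 with 11.3 and 20.4.

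For each gene the most similar protein-coding gene was found from the distance in 4 numbers, the log2(1 + value) of promoter height and of distal peak count in each library. Syt11 was nearest to Agtr1a, Smim5 to Agtr1b, Olfr71 to Kcnk9, Ncf4 to Kcnj5, Neurl1b to Cacna1h, Celf2 to Cacna1d, Nfix to Vsnl1 and Spag1 to Dab2, at distances between 0.03 and 0.22. Clcn2 had no gene within 0.5, its nearest being Acbd4 at 0.51. The number of genes within 0.5 was 152 for Vsnl1, 142 for Agtr1a, 120 for Dab2, 70 for Kcnj5, 63 for Agtr1b, 58 for Kcnk9, 54 for Cacna1h and 21 for Cacna1d.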

How the data were processed

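Files were on mm10 per the labels. Per the text deposited beside them, peaks, footprints and false discovery rates were made from each library's own filtered alignments without pooling. For the aligner, the peak caller, thresholds and versions nothing is given in the sources used here. Peak height is the authors' scaled signal; its scaling is not stated, and all heights were whole multiples of 1 step (tolerance 0.01 steps), 0.00934 in replicate 1 and 0.00883 in replicate 2. Were a step 1 tag on a scale of 1000000 tags, which is an inference, the libraries would hold about 1.07e+08 and 1.133e+08 tags; read counts were not analysed here, so that no counting intervals are given. The deposited false discovery rates are q-values listed under 0.05, and the p-value column of the deposited footprints was constant at 0.01, so that footprints were not ranked.

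The longer of 2 peak lists per library was used, on chromosomes 1 to 19 and X, with genes and TSS from the basic set of GENCODE M21. A footprint had to lie wholly inside a peak, and peaks were shared at an overlap of 1 bp. Percentiles give ties their middle rank. CpG ratios are the highest over the TSS of a gene, within 500 bp on either side. The capitals of the printed sequences take in every footprint base within the printed window. Sequence in untranslated regions of the annotation was left out. The assignment of peaks was tested on simulated peaks. The members and gene lists were chosen with earlier results of these data known. All 9 members are named, each with its tallest promoter peak and its 2 tallest distal peaks away from other TSS; the restriction to sites away from other TSS was added after the values had been seen, as was the share of repeats. From each list the tallest and lowest genes are named. A listed gene is not reported here, and the counts of its list are left out. The tools were numba 0.67.0, numpy 2.4.6 and pandas 2.3.3 in Python 3.11.15, with figures from matplotlib 3.10.9.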

Additional observations from a re-analysis of the deposited data

How the results depend on the processing

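Of 51 alternative values, 43 moved by less than the spread between libraries (or, for counts, stayed within 1.5 times the main count) and 8 moved by more. Reversals were not scored. For values judged by the spread, a move on leaving out 1 library cannot exceed it, so those fell among the 43 by construction. Values are means of both libraries. With the shorter peak lists the median number of distal peaks per gene was 7.5, against 11.5, and 88.4% of peaks held a footprint, against 79.9%. With peaks at or above the library's median height these values were 5.5 and 93.9%, and the shared part was 84.6%, against 74.6%. Flanks of 10 kb gave a median of 8 distal peaks and flanks of 200 kb gave 19. With only the 5′ end of each gene record as TSS the median promoter height was 1.17, against 3.44, since Dab2 then had no promoter peak. By leaving out each library in turn, members with a promoter peak ranged from 7 to 9, the median promoter height from 2.76 to 4.12, members with a distal peak stayed at 9, the median of distal peaks ranged from 11 to 12, the share with a footprint from 77.9% to 81.9% and the shared part from 69% to 80.1%. The promoter calls of Kcnk9 and Kcnj5 rest on replicate 2 alone and are absent from its shorter list; with a window of 2 kb Kcnk9 had a promoter peak in both libraries (1.20 and 1.86) and with 500 bp in neither. TSS of the comprehensive annotation, and leaving out distal peaks near other TSS, were added after seeing the data. No paired analysis was possible because there is 1 group.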
